A study of Rattus norvegicus with 18 samples.

Results

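miR-132 and miR-212 are a pair of microRNAs (miRNAs, short RNAs that repress the translation of messenger RNAs) that lie side by side in the genome. Both arms of both precursors were followed here in dorsal root ganglia (DRG) of the rat, which gives 4 mature miRNAs: rno-miR-132-5p, rno-miR-132-3p, rno-miR-212-5p and rno-miR-212-3p (rno, for the rat, is left off from here on). They were chosen by name, as every row of the count table called miR-132 or miR-212, and they are 4 of 753 miRNAs listed. All 4 were among the 373 miRNAs with more than 10 counts in at least 6 libraries, which were the ones tested.

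Small RNA was sequenced from the cervical 6 to 8 DRG of 18 adult Lister hooded rats, with 6 rats in each of 3 groups. Naive rats were unoperated and received no vector. In the bPYX rats the corticospinal tract was cut on both sides in the medullary pyramids, and adeno-associated virus of serotype AAV1 was then injected on a single side into forelimb flexor muscles. In bPYX+GFP rats the vector carried green fluorescent protein, and in bPYX+NT3 rats it carried human neurotrophin-3, in each case behind the CMV promoter, which is active in many cell types. Ganglia of the injected side were collected at 10 weeks and pooled within a rat, never between rats, so each library is 1 animal. The comparison of bPYX+GFP with naive therefore holds surgery, vector and GFP together, and the effects of these cannot be told apart. Whole ganglia were used, with sensory neurons, glia and vessels, and fewer cells of a type cannot be told apart from less RNA per cell.

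As background, miR-132 and miR-212 are transcribed together, and their primary transcript is a well known target of the transcription factor CREB. Neuronal activity and neurotrophins such as BDNF, which signal through Trk receptors to CREB, raise it in cultured neurons. NT3 acts mainly through TrkC, the receptor carried by proprioceptive neurons of the DRG. In neurons miR-132-3p is well known for effects on dendrites and synapses. Each precursor hairpin is cut into a 5p and a 3p arm; as a rule the arms have different targets, because a miRNA recognises its targets mainly through its seed, the bases near its 5′ end.

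The mature sequences show what can be told apart in the counts, and which arms share a seed. They were taken by name from RefSeq (rat assembly GRCr8), where all 4 were found, and are written 5′ to 3′ with the seed, bases 2 to 8, in capitals.
miR-132-3p: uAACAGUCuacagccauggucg
miR-212-3p: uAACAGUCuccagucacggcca
miR-132-5p: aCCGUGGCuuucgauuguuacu
miR-212-5p: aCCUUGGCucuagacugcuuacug

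The 3p arms shared the seed AACAGUC, and no other of the 693 mature rat miRNAs in the table had it. They differed at 5 of 22 positions, all outside the seed (A10C, C14U, U17C, U20C and G22A, with positions counted from the 5′ end and the base of miR-132-3p first). The 5p arms differed at 8 of the 22 positions they share, including G4U inside the seed, and miR-212-5p was 2 bases longer. The 5p seeds, CCGUGGC in miR-132-5p and CCUUGGC in miR-212-5p, each occurred in no other mature miRNA of the table. The 4 miRNAs thus fall into 3 seed groups, and no 2 of the mature sequences were identical.

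The hairpin of Mir132 shows the relation of the arms, which are in capitals, 5p first.
Mir132 hairpin: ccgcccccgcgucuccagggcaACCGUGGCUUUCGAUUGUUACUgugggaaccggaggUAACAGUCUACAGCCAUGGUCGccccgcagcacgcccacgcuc
In that assembly Mir212 and Mir132 were immediate neighbours on the same strand, with the protein-coding gene Hic1 on the side of Mir212 and a long non-coding RNA, followed by Ovca2, on the side of Mir132. GRCr8 is not the build used for the counts (Rnor_5.0), so no coordinates are given.

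Counts given to miRNAs ranged from 3.88 to 6.92 M per library, where M is the SI prefix mega, and the median was 4.55 M; bPYX+GFP replicate 3 was the deepest, and the next library had 5.19 M. DRG identity was visible in miR-182 and miR-96-5p, miRNAs abundant in sensory neurons: with miR-183-5p, which the table listed at 0, they summed to between 23129 and 34494 per M of miRNA counts. The general neuronal markers miR-124-3p and miR-9a-5p together were counted at or below 1.63 per M in every library. Reads with low-quality alignment, 31.4% of all reads on average, were not counted, and a miRNA with near copies may be undercounted. These values and the 0 of miR-183-5p may therefore lie below the level in the tissue, which was not tested. The study left out 1 naive rat, naive replicate 1, as an outlier. It was kept here, and without it no member gained or lost a call.

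miR-132-5p was the most abundant of the 4 in all 18 libraries, with a mean of 134 counts per M after TMM scaling (CPM) and rank 148 of the 373 tested miRNAs. miR-132-3p and miR-212-5p followed at 39.2 and 39.3 CPM, in adjacent ranks; miR-132-3p was the higher of the pair in 10 of 18 libraries, so this order does not stand out from their spread. miR-212-3p was the lowest in all 18 libraries at 4.71 CPM, rank 333. These levels compare reads of nearly equal length, and how well each miRNA was captured in the library was not measured.

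miR-132-5p, the 5p arm of miR-132, had 114, 120, 162, 142, 127 and 154 CPM in naive replicates 1 to 6. In the bPYX+GFP rats it had 151, 151, 129, 143, 150 and 156 CPM. In the bPYX+NT3 rats it had 149, 150, 70.2, 149, 82.0 and 121 CPM. Replicates 3 and 5 of bPYX+NT3 were the lowest of all 18 libraries. The other 4 NT3 rats lay at levels also seen in naive rats, and the groups overlapped.

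miR-132-3p, the arm that carries the seed AACAGUC at the higher level, had 39.9, 41.1, 35.6, 41.5, 36.0 and 36.2 CPM in naive rats. Its levels in bPYX+GFP were 38.2, 39.4, 33.6, 42.6, 32.5 and 32.3 CPM. In bPYX+NT3 they were 54.0, 41.4, 47.1, 32.1, 36.4 and 44.9 CPM. NT3 replicates 1, 3 and 6 were above every rat of both other groups, while NT3 replicate 4 was below every other library.

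miR-212-5p had the lowest coefficient of variation of the 4 over all 18 libraries, though not within naive or bPYX+GFP rats alone. It had 38.8, 48.8, 43.3, 38.5, 40.5 and 35.0 CPM in naive rats and 35.0, 38.1, 40.3, 43.7, 38.2 and 39.2 CPM in bPYX+GFP. In bPYX+NT3 it had 37.6, 39.7, 35.6, 45.0, 35.6 and 35.3 CPM. The 3 ranges lay over each other, and the coefficient of variation over all 18 libraries was 9.70%, against 7.42% from counting alone.

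miR-212-3p was counted 12 to 32 times per library, which limits what can be seen of it. Its levels were 2.91, 5.94, 3.93, 6.02, 4.48 and 3.10 CPM in naive rats, 4.13, 6.75, 3.81, 4.06, 4.88 and 5.07 CPM in bPYX+GFP, and 6.23, 4.19, 6.78, 3.05, 4.98 and 4.49 CPM in bPYX+NT3. Its coefficient of variation over all libraries was 25.9%, and counting alone gives 22.1%.

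**Figure D1:**
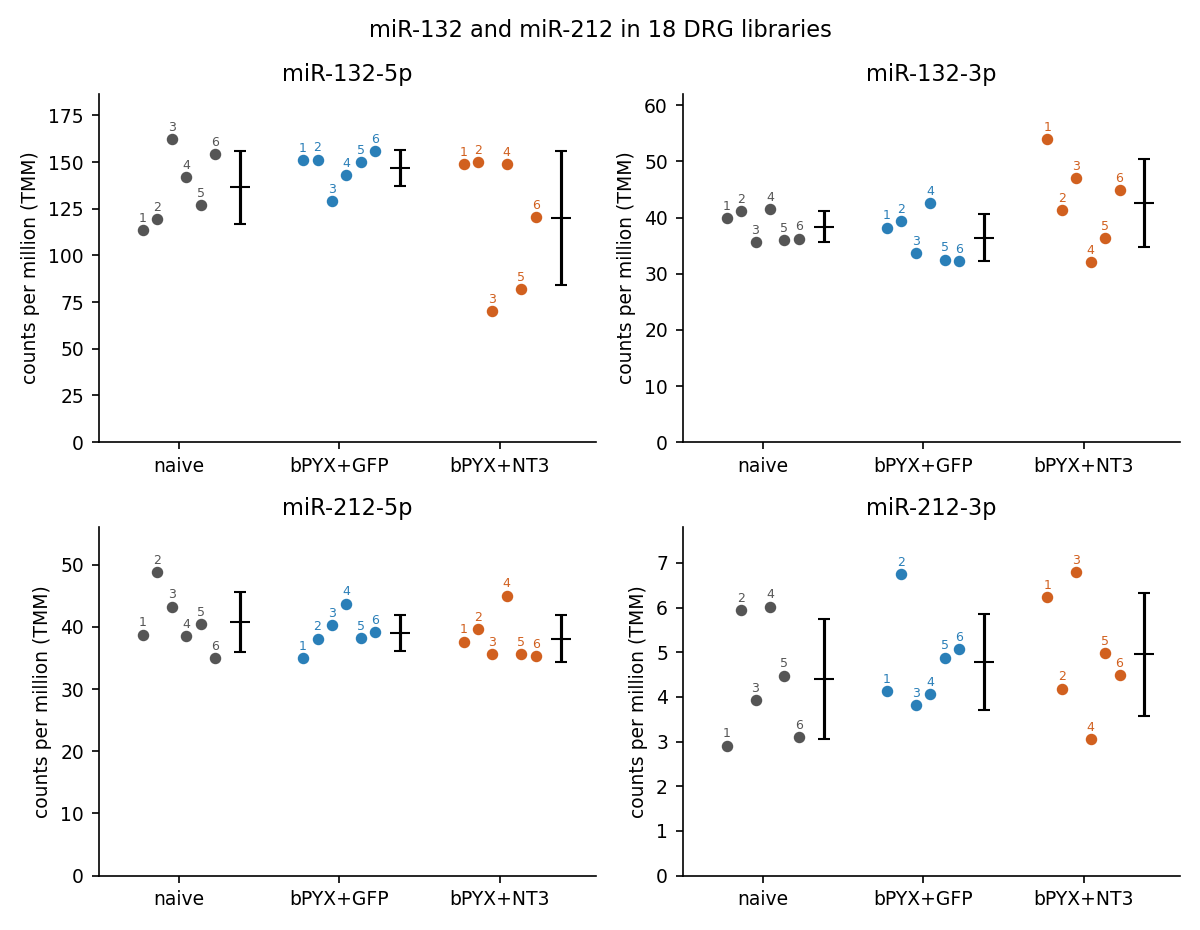
Level of each mature miRNA in every library (vertical axis, CPM after TMM scaling; numbers are replicate numbers) for naive, bPYX+GFP and bPYX+NT3 rats, with the group mean ± SD (n = 6) at the right of each group. Groups overlap in all 4 panels, and bPYX+NT3 replicates 3 and 5 are the lowest points for miR-132-5p, at 70.2 and 82.0 CPM.

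The first comparison asks what 10 weeks after corticospinal injury, with a control vector, did to these miRNAs in sensory ganglia. No member passed the test. miR-132-5p averaged 147 ± 9.60 CPM in bPYX+GFP and 136 ± 19.6 CPM in naive rats (SD, n = 6 each), a log2 fold change of 0.10 ± 0.10 (SE; 95% interval −0.10 to 0.31; edgeR quasi-likelihood test, adjusted p = 0.612). miR-132-3p averaged 36.4 ± 4.26 against 38.4 ± 2.73 CPM, a log2 fold change of −0.08 ± 0.10 (interval −0.28 to 0.13, edgeR adjusted p = 0.717). The log2 fold change of miR-212-5p was −0.06 (interval −0.27 to 0.15), and that of miR-212-3p was 0.11 with the widest interval, −0.35 to 0.58. For the 3 more abundant members these intervals leave room for changes between 0.822-fold and 1.24-fold. Single rats moved these small values by more than 1.5 times: miR-132-5p was 0.056 without naive replicate 1 and 0.16 without naive replicate 3, miR-132-3p was −0.12 without GFP replicate 4 and −0.043 without GFP replicate 6, and miR-212-5p was −0.0045 without naive replicate 2 and −0.10 without naive replicate 6. miR-212-3p was 0.23 without naive replicate 4 and −0.0074 without bPYX+GFP replicate 2.

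By edgeR, 0 of 4 members had an adjusted p under 0.05. Likewise 0 of 4 had an unadjusted p under 0.05, which is the cut-off that the study applied. DESeq2 also gave 0 of 4 by unadjusted p. By adjusted p DESeq2 called no member, and it gave no adjusted value for miR-212-3p. Over all tested miRNAs the edgeR shares were 2.41% by adjusted and 21.2% by unadjusted p. In 4.02% of tested miRNAs the groups did not overlap in CPM, and in 0 of the 4 members.

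The second comparison asks what the NT3 vector added over the GFP vector after the same injury. The arms of miR-132 had estimates of opposite sign, and neither passed the test. miR-132-5p averaged 120 ± 36.0 CPM in bPYX+NT3 against 147 ± 9.60 CPM in bPYX+GFP, a log2 fold change of −0.29 ± 0.17 (SE; 95% interval −0.65 to 0.07; edgeR adjusted p = 0.625). NT3 replicates 3, 5 and 6 lay below every GFP rat, and the other NT3 rats lay within the GFP range.

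miR-132-3p averaged 42.6 ± 7.82 CPM in bPYX+NT3 against 36.4 ± 4.26 CPM in bPYX+GFP, a log2 fold change of 0.24 ± 0.12 (SE; 95% interval −0.03 to 0.50; edgeR adjusted p = 0.587). Of the 6 NT3 rats 4 were above the GFP mean. The miR-212 arms were nearer to 0: −0.02 (interval −0.22 to 0.17) for miR-212-5p and 0.07 (interval −0.40 to 0.54) for miR-212-3p. The sign of both miR-212 estimates depended on which libraries or scaling entered the fit.

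By edgeR, 0 of 4 members had an unadjusted and 0 of 4 an adjusted p under 0.05, against 8.58% and 0% of all tested miRNAs, and DESeq2 gave 0 of 4 as well. In no member, and in 0% of tested miRNAs, were the NT3 and GFP rats separate in CPM. The median size of log2 fold change over the 373 miRNAs was 0.12, and their median SE was 0.13. Both miR-132 estimates were larger in size than this median, with intervals that reached past 0. Without NT3 replicates 3 and 5, left out after seeing the data, the estimates were −0.08 for miR-132-5p and 0.21 for miR-132-3p.

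bPYX+NT3 against naive shares its NT3 rats with the comparison above and its naive rats with the first, so its values are not a separate line of evidence. The log2 fold changes were −0.19 (95% interval −0.57 to 0.20) for miR-132-5p, 0.15 (−0.11 to 0.41) for miR-132-3p, −0.10 (−0.32 to 0.12) for miR-212-5p and 0.18 (−0.32 to 0.68) for miR-212-3p. Here too single rats moved the values by more than 1.5 times. miR-132-5p was −0.071 without NT3 replicate 3 and −0.097 without NT3 replicate 5, and miR-132-3p was 0.24 without NT3 replicate 4. miR-212-5p was −0.041 without naive replicate 2, and miR-212-3p ran from 0.071 without NT3 replicate 3 to 0.30 without NT3 replicate 4. No member had an unadjusted p under 0.05 by edgeR or DESeq2, where 13.7% of tested miRNAs did by edgeR; by adjusted p it was 0% of all. Groups that did not overlap in CPM made up 1.34% of tested miRNAs, with no member among them. The lowest adjusted p among the members was 0.616, for miR-132-3p (edgeR).

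**Figure D2:**
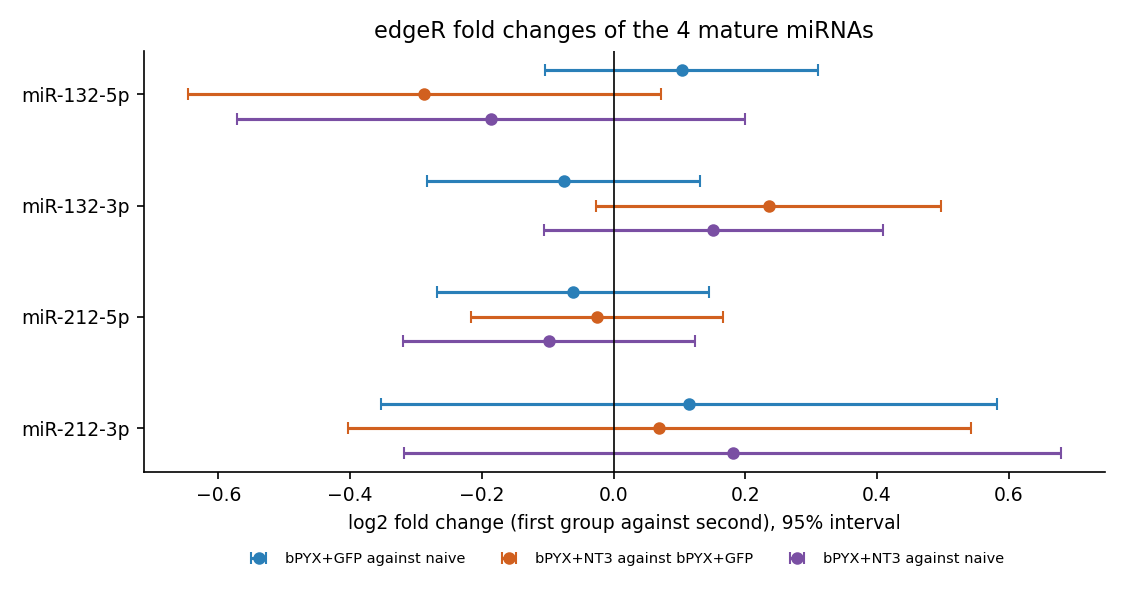
Log2 fold change of each mature miRNA (horizontal axis, first group of the comparison against the second) from edgeR with its 95% interval, in the 3 comparisons. All 12 intervals include 0; miR-132-5p and miR-132-3p lie on opposite sides of 0 in bPYX+NT3 against bPYX+GFP, at −0.29 and 0.24.

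A ratio of the arms within a library does not depend on scaling between libraries. In every library the 5p arm was counted more often than the 3p arm for both precursors: over all libraries together the ratio was 3.43 for miR-132 and 8.33 for miR-212. Of the 114 precursors with both arms tested, 63 (55.3%) had more 5p than 3p, 42 had a higher ratio than miR-132 and 33 a higher ratio than miR-212.

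The miR-132 ratio of 5p to 3p was 2.85, 2.91, 4.56, 3.42, 3.52 and 4.26 in naive rats. It was 3.95, 3.84, 3.83, 3.35, 4.61 and 4.83 in bPYX+GFP, and 2.76, 3.62, 1.49, 4.64, 2.25 and 2.69 in bPYX+NT3. In the NT3 group, replicates 1, 3, 5 and 6 were below every GFP rat and also below every naive rat, whereas replicate 4 was close to the highest of all.

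On the log2 scale, with 0.5 added to each count, the mean ratio was 1.45 ± 0.56 in bPYX+NT3 and 2.01 ± 0.19 in bPYX+GFP (SD, n = 6 each), a difference of −0.56 or 0.677-fold (two-sided exact permutation test, p = 0.0325). The rank-based interval of the difference, at 95.9% confidence, was −1.17 to 0.01. Over the 12 ratio tests made the adjusted p was 0.390, and over the 114 precursors it was 0.370, so the difference was not called. At an exact unadjusted p under 0.05, 12.3% of the 114 precursors passed in this comparison, and 5 precursors had a larger difference in size than miR-132; the median size over all was 0.14.

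With 1 rat left out in turn the difference in the miR-132 ratio kept its sign in all 12 cases, from −0.71 without bPYX+NT3 replicate 4 to −0.39 without bPYX+NT3 replicate 3. In 9 of these 12 cases the exact p was above 0.05, with p between 0.00433 and 0.0736 over all 12. The difference was −0.51 or larger in size in each case other than that without NT3 replicate 3. In bPYX+GFP against naive the miR-132 ratio differed by 0.19 (exact p = 0.186), and in bPYX+NT3 against naive by −0.37 (exact p = 0.193), with 21.9% and 21.1% of precursors passing at the unadjusted level. The latter was −0.19 without NT3 replicate 3 (exact p = 0.359) and −0.52 without NT3 replicate 4 (exact p = 0.0411).

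The miR-212 ratio of 5p to 3p had a median of 10.02 in naive rats, 8.15 with GFP and 7.51 with NT3, within a range of 5.25 to 14.8 over all libraries. Its log2 difference between bPYX+NT3 and bPYX+GFP was −0.07 (rank-based interval −0.58 to 0.47, exact p = 0.781), with no sign that held when single rats were left out. The ratio of like arms between the precursors had a median of 3.55 for miR-132-5p over miR-212-5p and of 8.75 for miR-132-3p over miR-212-3p, and none of their 6 comparisons had an exact p below 0.134.

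**Figure D3:**
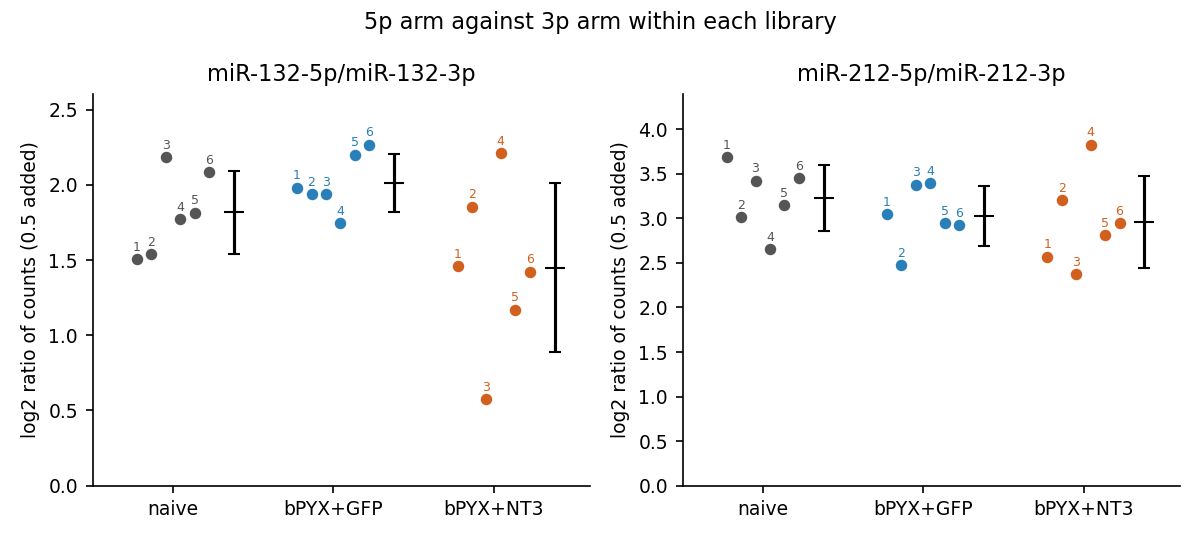
Log2 ratio of 5p to 3p counts within each library (vertical axis, 0.5 added to each count; numbers are replicate numbers) for miR-132 and miR-212, with the group mean ± SD (n = 6). The miR-132 ratio reaches its lowest values, 0.58 and 1.17, in bPYX+NT3 replicates 3 and 5, while the groups of the miR-212 ratio overlap throughout.

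Because the 3p arms share a seed, their reads can be summed as the supply of AACAGUC. The sum was 42.8 ± 3.699 CPM in naive rats, 41.2 ± 4.45 CPM with GFP and 47.6 ± 8.95 CPM with NT3 (SD, n = 6 each), and 89.2% of it came from miR-132-3p. The ranges overlapped, from 39.3 to 47.6, 37.3 to 46.7 and 35.1 to 60.2 CPM.

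The coefficient of variation of miR-132-5p was 14.4% in naive rats, 6.54% with GFP and 30.01% with NT3, where counting alone gives 4.46%; 48 of the 373 miRNAs had a larger one in bPYX+NT3, and the median there was 16.9%. NT3 replicates 3 and 5 gave the low end of that spread, and the other 4 NT3 rats lay between 121 and 150 CPM. That of miR-132-3p was 7.12%, 11.7% and 18.4%, and counting alone gives about 7.48%. miR-212-5p had 11.6%, 7.41% and 9.88%. Differences in spread between groups or between arms were not tested.

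bPYX+NT3 replicates 3 and 5 held the lowest values of miR-132-5p. In the other 16 libraries it ranged from 114 to 162 CPM, with a median of 149, against 70.2 and 82.0 in this pair. The pair was singled out after its values had been seen. The other members did not share the drop: miR-132-3p (47.1 and 36.4 CPM) and miR-212-5p (35.6 and 35.6 CPM) were inside the range of the other 16 libraries, and miR-212-3p (6.78 and 4.98 CPM) was inside it or just above its highest value of 6.75.

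Without both libraries the log2 fold change of miR-132-5p between bPYX+NT3 and bPYX+GFP went from −0.29 to −0.08 (edgeR adjusted p = 0.961), and against naive it turned from −0.19 to 0.054 (edgeR adjusted p = 0.905). The fold change of miR-132-3p between bPYX+NT3 and bPYX+GFP was 0.21 (edgeR adjusted p = 0.961). The difference in the miR-132 arm ratio shrank to −0.27 (exact permutation p = 0.157).

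Several measures of these 2 libraries were compared with the other 16. Their depth and their shares of low-quality, unaligned and ambiguous reads were within the range of the others. The TMM factor of replicate 3 was 1.14, just above the highest other of 1.13. Of the marker lists, the glial sum was at its lowest in this pair, at 6042 and 6264 per M against 7067 to 11105 per M elsewhere; 1 of its 2 markers, miR-204-5p, was counted, and miR-338-3p was listed at 0 in all libraries. The sums for sensory neurons, endothelium, red blood cells and skeletal muscle were within the range of the others. The part of glial content in the miR-132-5p values was not tested.

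The miRNAs whose log2 CPM followed miR-132-5p most closely over the 18 libraries were miR-22-5p (Pearson r = 0.950), miR-24-2-5p (r = 0.903) and miR-149-5p (r = 0.873). These correlations are descriptions over libraries that share their scaling. miR-22-5p, the less abundant arm of miR-22, had 315 and 397 CPM in NT3 replicates 3 and 5 against 401 to 626 CPM in the other 16 libraries, and its r was still 0.913 in those 16. For miR-24-2-5p and miR-149-5p the r over the 16 was 0.711 and 0.603.

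In the opposite direction, and named after the values were seen, miR-193a-3p (r = −0.886), miR-181c-5p (r = −0.809) and miR-22-3p (r = −0.807) had the lowest correlations with miR-132-5p. miR-193a-3p had 25.0 and 18.0 CPM in NT3 replicates 3 and 5 against 1.75 to 5.17 CPM elsewhere. miR-22-3p, the abundant arm of miR-22, had 45665 and 39417 CPM there against 21127 to 33285 CPM. Without these libraries the r of miR-193a-3p was −0.43 and that of miR-22-3p was −0.36, so much of both relations came from the pair.

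The arm ratios use the same 5p and 3p counts and are not a separate observation. Of the other 113 precursors, miR-22 had the log2 ratio of 5p to 3p that followed that of miR-132 most closely (r = 0.839), then miR-27b (r = 0.810) and miR-323 (r = 0.788), while miR-212, the neighbour in the genome, was at rank 13 (r = 0.491). NT3 replicates 3 and 5 again stood apart: their miR-22 ratios of 0.0069 and 0.010 were below the range of 0.012 to 0.026 in the other 16 libraries, and their miR-323 ratios of 0.029 in both were below 0.034 to 0.057. For miR-27b and miR-212 only replicate 3 lay below the other libraries: its ratios were 0.0022 and 5.25, while replicate 5 had 0.0025 and 7.15, inside the ranges of 0.0023 to 0.0038 and 5.65 to 14.8. In the 16 libraries without them r was 0.550 for miR-22, 0.768 for miR-27b, 0.529 for miR-323 and 0.233 for miR-212.

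**Figure D4:**
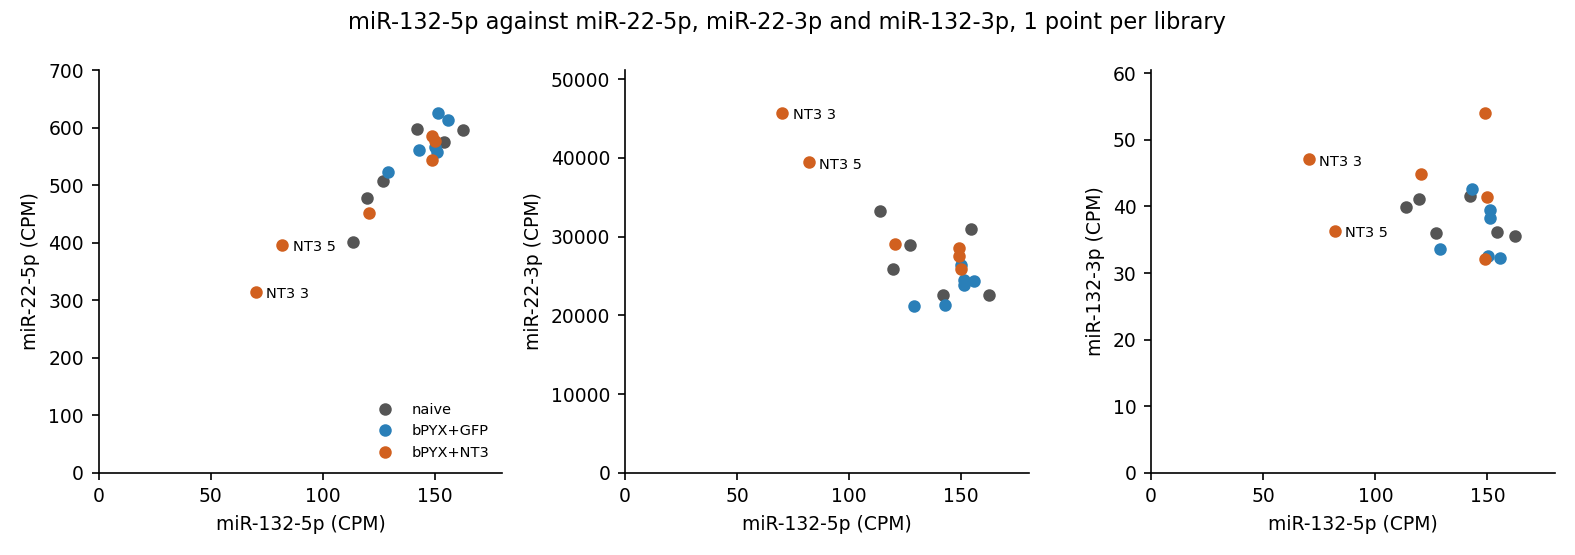
Level of miR-132-5p (horizontal axis, CPM) against miR-22-5p, miR-22-3p and miR-132-3p (vertical axes, CPM), 1 point per library, coloured by group, with bPYX+NT3 replicates 3 and 5 marked. miR-22-5p is lowest where miR-132-5p is lowest (r = 0.950), and miR-22-3p is highest where miR-132-5p is lowest. The relation to miR-132-3p is looser (r = −0.28, rho = −0.46). The r and rho values are of log2 CPM, not of the plotted CPM.

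The 4 miRNAs come from 1 primary transcript. With TMM scaling, no pair of their mature levels was called as correlated over the 18 libraries after adjustment. The arms of miR-132 had a Pearson r of −0.28 (permutation p = 0.253) and a Spearman rho of −0.46 (permutation p = 0.0576). The arms of miR-212 had r = −0.11 (permutation p = 0.655) and rho = −0.26 (permutation p = 0.289). The 5p arms had r = 0.26 (permutation p = 0.296) and rho = 0.0010 (permutation p = 1), and the r turned to −0.15 without the 2 libraries farthest from the median of miR-132-5p, which were the NT3 replicates 3 and 5.

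The 3p arms, with the common seed, gave the highest value of the 6 pairs, r = 0.48 (permutation p = 0.0459, adjusted over the 6 pairs 0.275) and rho = 0.45 (permutation p = 0.0628, adjusted 0.188). Within groups r was 0.52 in naive rats, 0.02 with GFP and 0.81 with NT3 (exact permutation p = 0.254, 0.963 and 0.0486). Without the 2 libraries farthest from the median of miR-132-3p, NT3 replicates 1 and 3, r was 0.24 (permutation p = 0.371). Scaled by library size only, r of the 3p arms over all libraries was higher, at 0.615, and no call is given for that scaling. miR-132-5p with miR-212-3p had r = −0.28 and rho = −0.17, and miR-132-3p with miR-212-5p had r = −0.21 and rho = −0.30.

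For the other members the closest patterns were weaker. miR-132-3p was followed best by miR-23a-3p (r = 0.692), miR-23b-3p (r = 0.666) and miR-582-3p (r = 0.656), and miR-212-3p by miR-23b-3p (r = 0.680), miR-223-3p (r = 0.653) and miR-205 (r = 0.646). miR-212-5p was followed by miR-219a-1-3p (r = 0.721), miR-221-5p (r = 0.704) and miR-540-3p (r = 0.674). No member was among the 3 closest of another.

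Other miRNAs linked in the literature to neuronal activity, CREB or neurotrophins were read from the same fits. This list, like the second below, was written from general knowledge, with earlier results of these data already known. Of 16 listed, 13 were tested. In bPYX+GFP against naive 2 were higher and 0 lower at unadjusted p: miR-182 (a log2 difference of 0.20, edgeR adjusted p = 0.173) and miR-222-3p (0.18, edgeR adjusted p = 0.232). In bPYX+NT3 against bPYX+GFP 1 was higher and 0 lower: miR-137-3p, which is enriched in the nervous system, at 398 ± 116 CPM where GFP rats had 297 ± 50.6 CPM (a log2 difference of 0.44, with an adjusted p of 0.448 by edgeR). In bPYX+NT3 against naive 2 were higher, miR-137-3p (0.56, edgeR adjusted p = 0.191) and miR-182 (0.19, edgeR adjusted p = 0.349), and 0 lower. None had an adjusted p under 0.05. miR-182 is also one of the sensory neuron markers above. The sum of those markers, which includes miR-182, ran from 23129 to 28880 per M in naive rats. It ran from 26505 to 33745 per M with GFP and from 28369 to 34494 per M with NT3. The other counted marker, miR-96-5p, was at 0.07 in the first comparison (edgeR adjusted p = 0.710) and −0.04 in the third (edgeR adjusted p = 0.886). The part of neuron content in the miR-182 values was not tested. Without NT3 replicates 3 and 5 miR-137-3p was 0.11 above GFP (edgeR adjusted p = 0.961) and 0.27 above naive (edgeR adjusted p = 0.701), and neither value was called at an unadjusted p. Without naive replicate 1 miR-222-3p in the first comparison (0.16) and miR-182 in the third (0.19) lost that call. These calls were unsteady to single rats of either group. With each rat left out in turn, the unadjusted call was lost in 10 of 12 cases for miR-222-3p, and for miR-182 in 2 of 12 in the first comparison and 3 of 12 in the third. For miR-137-3p against GFP it was lost in 5 of 12 (without GFP replicate 1, 3 or 4 or NT3 replicate 3 or 5), with values from 0.26 to 0.54, and against naive in 0 of 12. The median log2 fold changes of the list were 0.03, 0.005 and 0.16, in the order of the comparisons, beside 0.0036, −0.00042 and −0.011 over all tested miRNAs, of which 21.2%, 8.58% and 13.7% had an unadjusted p under 0.05.

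A second list held 9 miRNAs described as repressing Bdnf or Creb1 messenger RNAs, of which 6 were tested. In bPYX+GFP against naive, miR-195-5p (0.17, edgeR adjusted p = 0.232) and miR-26b-5p (0.19, edgeR adjusted p = 0.232) were higher at unadjusted p and miR-22-3p was lower (−0.22, edgeR adjusted p = 0.232). In bPYX+NT3 against bPYX+GFP only miR-22-3p among the 6 had an unadjusted p under 0.05, at 32666 ± 7974 CPM where GFP rats had 23582 ± 2010 CPM (a log2 difference of 0.48, with an adjusted p of 0.217 by edgeR). This is the miRNA that ran opposite to miR-132-5p above, and its highest values were those of NT3 replicates 3 and 5. In bPYX+NT3 against naive, miR-26b-5p (0.32, edgeR adjusted p = 0.191) and miR-195-5p (0.27, edgeR adjusted p = 0.349) were higher and miR-30a-5p was lower (−0.24, edgeR adjusted p = 0.349). None of the 6 had an adjusted p under 0.05 in any comparison. The called members, 3, 1 and 3 of 6, stand beside 21.2%, 8.58% and 13.7% of all tested miRNAs at an unadjusted p under 0.05, and with so few members these shares are not compared. The medians of this list were 0.10, 0.04 and 0.24, beside the same medians over all tested miRNAs. Without naive replicate 1 the log2 difference of miR-22-3p after injury was −0.15 (edgeR adjusted p = 0.411) and was no longer called at an unadjusted p. In bPYX+NT3 against naive, miR-30a-5p also lost that call without this rat (−0.23, edgeR adjusted p = 0.357). Without NT3 replicates 3 and 5 miR-22-3p was 0.20 above GFP (edgeR adjusted p = 0.721) and still called at an unadjusted p. Against naive, without the same 2 libraries, miR-26b-5p (0.19), miR-195-5p (0.098) and miR-30a-5p (−0.13) lost that call. With each rat left out in turn, the unadjusted call after injury was lost in 6 of 12 cases for miR-195-5p and in 8 of 12 for both miR-26b-5p and miR-22-3p. Between NT3 and GFP it was lost in 0 of 12 for miR-22-3p. Against naive it was lost in 6 of 12 for miR-195-5p, in 7 of 12 for miR-30a-5p and in 0 of 12 for miR-26b-5p.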

How the data were processed

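Small RNA libraries (NEBNext kit, 50-base single reads, Illumina HiSeq, no molecular identifiers stated) were made from 18 rats. The authors converted reads with bcl2fastq 1.8.4, trimmed them, aligned them with Bowtie2 to Rnor_5.0 and counted with HTSeq; other versions, the annotation and the strand setting are not given in the sources used here. The deposited values are raw counts per mature miRNA. Of all reads in the deposited counts 34.9% were given to a miRNA, and the entries for the rest were left out. Among the rest, low-quality alignment took 31.4% of all reads, so a miRNA with near copies may be undercounted. The paper states a higher share of reads mapped to miRNA features, and these shares were not reconciled here.

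Groups came from the labels. The smallest chi-square per degree of freedom between libraries of a group was 39.6, so no replicate was treated as a copy of another in its group; pairs across groups were not compared. Counts were fitted per pair of groups with edgeR 4.0.16 (R 4.3.3; TMM; quasi-likelihood F test; more than 10 counts in at least 6 of 18 libraries; Benjamini-Hochberg over 373 miRNAs). Ratios were tested by exact permutation (924 splits), correlations of log2 CPM (prior count 2) with 100000 resamples. Scripts were tested on simulated counts. The 4 members, their 3 closest miRNAs by Pearson r and list entries with unadjusted p under 0.05 were named. Members and lists were chosen with earlier results of these data known. Alternatives were DESeq2 1.42.0, the edgeR likelihood ratio test, a robust prior, other scalings and filters, a 3-group fit, a replicate block, no pseudocount, medians, and leaving out libraries. The correlation of deviations of same-numbered rats was mixed (r from −0.38 to 0.37) and not above 0.1 for every number in any comparison, so the numbers were not taken as pairs. Intervals cover the spread between rats and counting, and PCR copies are not independent molecules. Mir212's hairpin and both promoter windows were not analysed here.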

Additional observations from a re-analysis of the deposited data

How the results depend on the processing

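Of the alternatives other than leaving out 1 rat, the member fold changes, which have no call, kept their direction in 110 results and turned in 3. The 3 were miR-212-5p in bPYX+NT3 against bPYX+GFP with library size only (0.0025), and, without bPYX+NT3 replicates 3 and 5 (chosen after seeing the data), miR-212-3p in the same comparison (−0.11) and miR-132-5p against naive (0.054). A filter above 100 counts gives no value for miR-212-3p. The cause of these shifts was not tested.

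With the pair left out, miRNAs called at an unadjusted p numbered 20 in bPYX+NT3 against bPYX+GFP and 25 against naive; with no detection filter the first was 54. DESeq2 gave 23 miRNAs with an adjusted p under 0.05 in bPYX+GFP against naive, and the likelihood ratio test, DESeq2 and the 3-group fit each gave 1 in bPYX+NT3 against naive. The replicate block, which is not a paired design here, called 1 member at an unadjusted p in the comparison of NT3 with GFP, miR-132-5p at −0.34 (edgeR adjusted p = 0.425; range over alternatives 0.337 to 0.961). For the miR-132 arm ratio the block left the difference at −0.56 (exact p = 0.0938).

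Without the pair the arm ratio differences between bPYX+NT3 and bPYX+GFP were −0.27 for miR-132 and 0.11 for miR-212. Against naive, miR-132-5p over miR-212-5p turned to 0.11 and miR-132-3p over miR-212-3p to 0.10; by medians the latter was 0.12. Pearson r of miR-132-5p with miR-212-5p was −0.037 by library size and −0.15 without the pair, which also were the libraries farthest from the median; with miR-212-3p it was 0.10. Pearson r of miR-132-3p with miR-212-5p was 0.038 by library size. That of the 3p arms was 0.615 by library size, 0.24 without the farthest libraries and 0.41 without the pair. That of the miR-212 arms was 0.19 by library size and 0.013 without the pair.

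Leaving out 1 rat in turn, miRNAs with an adjusted p under 0.05 numbered 3 to 20 in bPYX+GFP against naive and 0 to 4 in bPYX+NT3 against naive. With an unadjusted p they numbered 24 to 54 in bPYX+NT3 against bPYX+GFP and 32 to 68 against naive. Members so called in bPYX+NT3 against bPYX+GFP numbered 0 to 1: miR-132-5p without NT3 replicate 2 (edgeR adjusted p = 0.342), and miR-132-3p without NT3 replicate 4 (edgeR adjusted p = 0.226) or 5 (edgeR adjusted p = 0.747). The fold change of miR-212-3p ran from −0.0074 to 0.23 in bPYX+GFP against naive and from −0.069 to 0.21 in bPYX+NT3 against bPYX+GFP, and that of miR-212-5p from −0.080 to 0.0067 in the latter. The miR-132 arm ratio ran from −0.71 to −0.39 in bPYX+NT3 against bPYX+GFP and from −0.52 to −0.19 against naive, and the miR-212 arm ratio from −0.24 to 0.046 in the first. miR-132-3p over miR-212-3p ran from −0.12 to 0.071 against naive. Depth limits miR-212-3p most, at 12 to 32 counts per library.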
